A study of Mus musculus with 16 samples.

Results

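The nuclear long noncoding RNAs described here were Malat1, Neat1, Meg3, Snhg11 and Miat, 5 of the 30389 genes in single-cell tables of the mouse cortex. They were chosen by symbol, and their unique molecular identifiers (UMIs, tags that let amplified copies of 1 molecule be counted once) were summed over cell barcodes with 200 to 7000 detected genes. The study asked how a tau transgene alters cortical cells in each sex. THY-Tau22 mice express mutant human tau under a neuronal Thy1.2 promoter, so that the transgene is driven in neurons and not in glia. They came from heterozygous THY-Tau22 males crossed with C57Bl6/J females, and wild-type (WT) littermates were the controls. All mice were 17 months old, and the 16 Drop-seq libraries were labelled by sex and genotype: 4 and 4 of WT and THY-Tau22 males, 3 and 5 of WT and THY-Tau22 females. Levels are given as CPM, a gene's UMIs scaled to a common total over those barcodes.

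A long noncoding RNA is a transcript that is spliced and polyadenylated like many mRNAs, or processed in its own way, but has no known protein product. Malat1 and Neat1 are transcribed from neighboring genes. Malat1 RNA gathers in nuclear speckles, bodies rich in splicing factors, whereas Neat1 RNA is the scaffold of paraspeckles, bodies built on RNA-binding proteins such as Sfpq and Nono. Meg3 is expressed from the maternal copy of the imprinted Dlk1-Dio3 locus and is known as a nuclear RNA of neurons. Snhg11 is a host gene of small nucleolar RNAs with high levels in neurons, and Miat, also called Gomafu, forms nuclear spots in neurons. Malat1, Neat1, Meg3 and Miat are known as nuclear RNAs, whereas the ribosomal RNAs (rRNAs) mt-Rnr1 and mt-Rnr2 are made and used inside mitochondria. Where in the cell the long noncoding RNAs lay was not measured here. The percentage of UMIs from mt-Rnr1 and mt-Rnr2, the mitochondrial rRNA share, was followed beside them in every library.

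Annotation of the mouse genome GRCm38, the build that corresponds to the mm10 named in the submitters' processing notes, placed Malat1 at chr19:5795690-5802672 and Neat1 at chr19:5824708-5845478, both on the minus strand and 22.0 kb apart. Meg3 lies at chr12:109541001-109571726 on the plus strand, with 11 annotated transcripts. Snhg11 lies at chr2:158375638-158386145 on the plus strand, and Miat at chr5:112213228-112229395 on the minus strand. The longest transcripts of Malat1 and Neat1 have 1 exon each and span 6983 and 20771 bases, against 14548 bases for Meg3, 5864 bases for Snhg11 and 9163 bases for Miat. GENCODE types Snhg11 as protein coding and RefSeq as a long noncoding RNA.

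Drop-seq beads capture RNA by its adenosine runs, so internal runs of at least 10 adenosines were looked for in these transcripts, and that of Malat1 is shown with the run in capitals. The longest Malat1 transcript held 1 such run and that of Meg3 held 6, whereas those of Neat1, Snhg11 and Miat held 0. Of 7040 annotated transcripts of at least 5000 bases, 68.7% held none and 0.753% held 5 or more. The stretch runs from base 6650 to 6709 of the Malat1 transcript. Whether capture at these runs contributed to the counts was not tested.
Malat1: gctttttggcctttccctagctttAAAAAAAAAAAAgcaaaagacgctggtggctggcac

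Snhg11 was the gene whose levels across cell classes and libraries were most like those of Meg3, and the promoters of both are shown for that reason. Each runs from 250 bases before to 50 bases after a start of the gene in RefSeq (GRCm38.p6), at chr12:109540746-109541045 and chr2:158375463-158375762, both on the plus strand. RefSeq gives Meg3 a further start, whose window is not shown. Capitals mark matches on either strand to the cAMP response element TGACGTCA, its shorter form TGACG, the TATA box TATAAA and the GC box GGGCGG.
Meg3: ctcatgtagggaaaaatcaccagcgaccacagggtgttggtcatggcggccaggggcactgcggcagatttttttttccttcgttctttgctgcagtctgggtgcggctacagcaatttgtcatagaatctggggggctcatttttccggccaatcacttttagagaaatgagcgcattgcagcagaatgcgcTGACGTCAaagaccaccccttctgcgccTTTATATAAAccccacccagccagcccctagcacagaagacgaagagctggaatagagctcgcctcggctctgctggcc
Snhg11: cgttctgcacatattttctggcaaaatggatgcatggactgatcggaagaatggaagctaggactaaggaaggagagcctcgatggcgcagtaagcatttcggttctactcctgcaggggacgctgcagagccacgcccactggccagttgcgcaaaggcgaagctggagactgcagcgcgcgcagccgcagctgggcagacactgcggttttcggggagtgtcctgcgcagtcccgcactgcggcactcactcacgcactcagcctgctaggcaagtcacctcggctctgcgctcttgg

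The Meg3 window shown held TGACGTCA at position -57, with TGACG on both strands inside it, and TATAAA on the minus strand at -29 and on the plus strand at -25, which overlap. The window at the further Meg3 start, chr12:109545148-109545447, held none of the 4 motifs. The Snhg11 window held none of the 4 motifs. Of 32851 promoters of the same length, 1.79% held TGACGTCA, 20.8% held TGACG, 13.6% held TATAAA and 35.7% held GGGCGG. The windows of Malat1 and Miat held no TGACGTCA or TATAAA, and that of Malat1 held TGACG at 3 positions.

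The libraries held 48000 barcodes, of which 28530 passed the limits on detected genes, and between 755945 and 2089367 UMIs per library remained. WT male 3 and THY-Tau22 male 4 shared 2952 of their 3000 barcodes, whereas the other library pairs shared 3 to 12. Their 2 tables therefore came from largely 1 library under opposite genotypes. Both tables were left out of every genotype comparison, which leaves 3 WT and 3 THY-Tau22 males, and they were averaged as 1 library elsewhere, which gives 15 libraries. The titles of WT female 3 and THY-Tau22 female 5 carry the prefix MB22 and those of the other libraries MB21; what the prefix stands for is not given in the titles. WT male 1 and THY-Tau22 female 1 carry the same animal number in their titles under opposite sex and genotype. Neurons made up only 825 of the 25202 barcodes that could be assigned to 1 of 6 cell classes, so that most barcodes in the sums below are glia and vessel cells. Neurons nonetheless held 52.1% of the Meg3, 53.0% of the Snhg11 and 42.8% of the Miat UMIs in the 14 libraries of the genotype comparisons.

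Malat1, the speckle RNA, supplied between 2.92% and 6.28% of all UMIs in a library. In WT males it stood at 50529, 56055 and 62817 CPM, and in THY-Tau22 males at 41039, 40357 and 29164 CPM. The male groups did not overlap, and the lowest library of all was THY-Tau22 male 3. In WT females it stood at 33962, 29588 and 62151 CPM, and in THY-Tau22 females at 46773, 49558, 46866, 37448 and 54913 CPM. The 5 THY-Tau22 females all lay between the WT female values, and the highest library of each female group was the one with the MB22 prefix.

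Neat1, the paraspeckle RNA, stood at 415, 546 and 437 CPM in WT males and at 665, 466 and 712 CPM in THY-Tau22 males. Its values were 458, 705 and 351 CPM in WT females and 624, 448, 334, 607 and 513 CPM in THY-Tau22 females. Both sexes had overlapping groups. Among these 14 libraries Neat1 was highest in THY-Tau22 male 3, the library in which Malat1 was lowest.

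Meg3 differed most between libraries among the 4 RNAs with at least 119 UMIs in every table, with a 6.53-fold span from lowest to highest against 2.15-fold for Malat1, 2.13-fold for Neat1 and 3.54-fold for Snhg11. Meg3 stood at 1394, 1591 and 1638 CPM in WT males and at 1253, 1950 and 1047 CPM in THY-Tau22 males. Its values were 940, 482 and 2498 CPM in WT females and 866, 1129, 1022, 382 and 1820 CPM in THY-Tau22 females. In the females of each genotype the MB22 library was the highest, and the groups overlapped in both sexes.

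Snhg11, the small nucleolar RNA host, was also highest in WT female 3. It stood at 270, 341 and 266 CPM in WT males, at 266, 415 and 366 CPM in THY-Tau22 males, at 286, 133 and 470 CPM in WT females and at 194, 281, 244, 157 and 388 CPM in THY-Tau22 females. Miat was sparse, with 1 to 27 UMIs per table. Its values were 8.62, 11.7 and 12.5 CPM in WT males, 4.77, 10.5 and 11.7 CPM in THY-Tau22 males, 7.93, 6.53 and 15.9 CPM in WT females and 7.84, 4.61, 9.08, 1.32 and 10.3 CPM in THY-Tau22 females. The groups of both RNAs overlapped in both sexes.

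**Figure D1:**
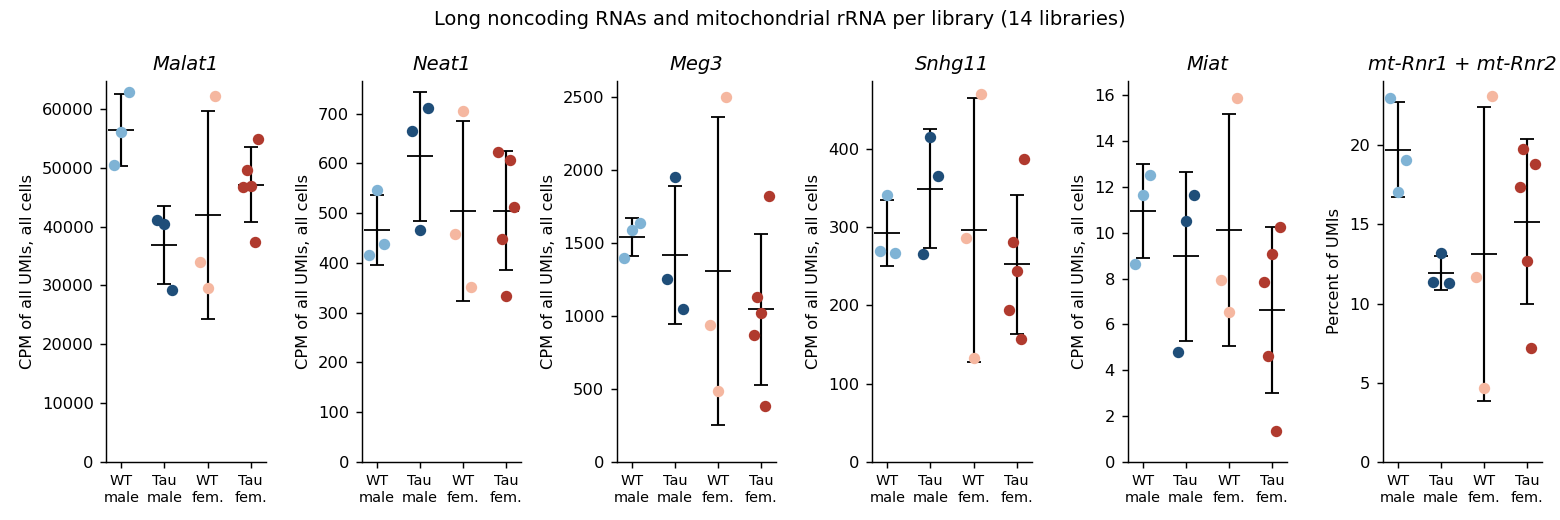
CPM of Malat1, Neat1, Meg3, Snhg11 and Miat over all cells (y axes, from 0) and the percentage of UMIs from mt-Rnr1 and mt-Rnr2 (last panel) in 14 libraries by group, where Tau stands for THY-Tau22, points are libraries, and bars give the mean and SD. The male groups are separate for Malat1 (29164 to 41039 against 50529 to 62817 CPM) and for the rRNA share, and overlap for the other RNAs.

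Across the 6 cell classes the RNAs fell into different patterns. Cells were assigned by UMIs of defining markers, and markers not used for assignment reached 1651 to 6141 CPM in their own class. The oligodendrocyte precursor cell (OPC) class was the least distinct, with 1651 CPM of its own check markers beside 574 CPM of astrocyte, 526 CPM of oligodendrocyte and 309 CPM of neuron markers. Pairs of classes next to each other in the order of means were compared with an exact sign-flip test over the 15 libraries, and p-values were adjusted over all 25 such pairs.

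Malat1 was present in every class. Its mean was 72436 CPM ± 15837 (SD, n = 15) in astrocytes, 55629 ± 15945 in OPCs, 52074 ± 15759 in neurons, 39802 ± 11342 in oligodendrocytes, 35811 ± 8949 in microglia and 35360 ± 7976 in endothelial cells. Astrocytes exceeded OPCs 1.33-fold and in 15 of 15 libraries (adjusted exact p = 2.54e-04), and oligodendrocytes exceeded microglia 1.10-fold and in 13 of 15 (adjusted exact p = 0.00706). OPCs and neurons did not differ beyond their spread (adjusted exact p = 0.574), nor did microglia and endothelial cells (adjusted exact p = 0.693). Neurons exceeded oligodendrocytes 1.30-fold in 12 of 15 libraries (adjusted exact p = 0.0317), a difference that was lost when cells had to carry more marker UMIs (adjusted exact p = 0.342).

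Neat1 was highest in oligodendrocytes, the myelin-forming cells, at 1309 CPM ± 294 (SD, n = 15). The next class, endothelial cells, had 425 ± 98.7 CPM, so that oligodendrocytes were 3.08-fold higher and in 15 of 15 libraries (adjusted exact p = 2.54e-04). Astrocytes had 367 ± 81.0 CPM, microglia 306 ± 85.9, OPCs 45.7 ± 40.1 and neurons 15.2 ± 20.0. Each of the steps from endothelial cells to astrocytes, from astrocytes to microglia and from microglia to OPCs passed the test (adjusted exact p = 0.0317, 0.0261 and 2.54e-04), but on non-mitochondrial UMIs the step from endothelial cells to astrocytes was 1.09-fold and did not pass (adjusted exact p = 0.228), whereas the step from OPCs to neurons did not (adjusted exact p = 0.0998). Oligodendrocytes were 17.6% of the cells in the 14 libraries of the genotype comparisons and held 44.9% of their 9042 Neat1 UMIs.

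Meg3 and Snhg11 were neuronal. Meg3 reached 15853 CPM ± 5129 (SD, n = 15) in neurons, 22.8-fold above the 698 ± 236 CPM in OPCs (higher in 15 of 15 libraries, adjusted exact p = 2.54e-04). OPCs in turn stood 3.06-fold above oligodendrocytes, with 303 ± 237 CPM (adjusted exact p = 0.00567). The lower classes, with 282 ± 148 CPM in astrocytes, 226 ± 256 in endothelial cells and 146 ± 75.1 in microglia, showed no further step past the test. Snhg11 reached 3835 ± 1126 CPM in neurons and 279 ± 108 in OPCs, a 14.3-fold step, and OPCs stood 4.38-fold above astrocytes (both adjusted exact p = 2.54e-04). Its means in astrocytes, oligodendrocytes, endothelial cells and microglia were 66.6, 65.6, 41.3 and 34.9 CPM.

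Miat had the same leading classes, with 89.2 ± 44.6 CPM in neurons and 32.7 ± 32.7 in OPCs (adjusted exact p = 0.0653). When cells had to carry more marker UMIs, neurons exceeded OPCs in 10 of 13 libraries (adjusted exact p = 0.00610). OPCs exceeded astrocytes, which had 3.70 CPM (adjusted exact p = 0.0136), a difference lost when cells had to carry more marker UMIs, with OPCs higher in 6 of 13 libraries (adjusted exact p = 0.150). Miat rested on 166 UMIs in 14 libraries, of which 42.8% lay in neurons.

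**Figure D2:**
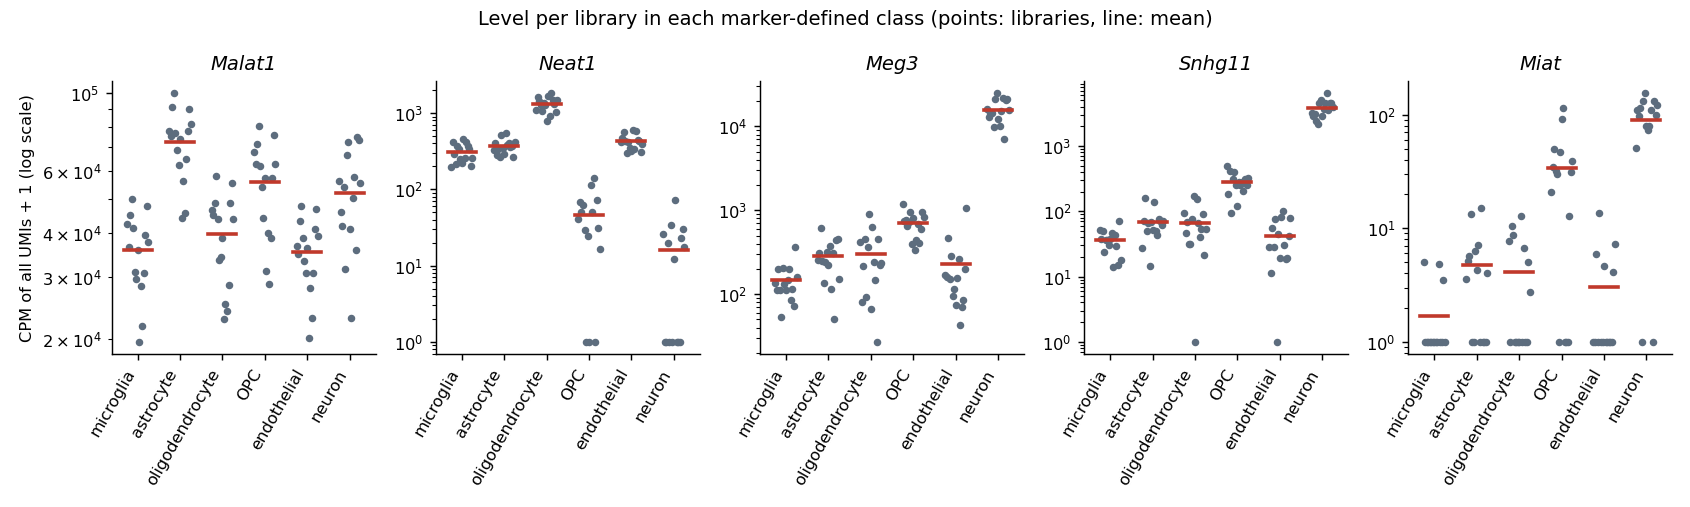
CPM plus 1 (log y axis) of each RNA in 6 marker-defined classes (x axis), with 1 point per library (15 libraries) and a line at the mean. Neat1 leads in oligodendrocytes at 1309 CPM, Meg3 and Snhg11 lead in neurons at 15853 and 3835 CPM, and Malat1 spans only 35360 to 72436 CPM between classes.

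The neuronal RNAs came from few cells. The neuron class was 2.71% of the cells and held 52.1% of the 24380 Meg3 UMIs (30.4% to 73.5% by library) and 53.0% of the 5406 Snhg11 UMIs. Barcodes assigned to no class held a further 32.6% and 30.3%. Malat1 was spread more evenly, with 29.5% of its 834239 UMIs in astrocytes, which were 20.3% of the cells. A median cell held 19 Malat1 UMIs in microglia, 22 in oligodendrocytes and in endothelial cells, 37 in OPCs, 40 in astrocytes and 45 in neurons.

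Outside neurons and OPCs, Meg3 was concentrated in a handful of barcodes. In oligodendrocytes, 29 of 4322 cells carried at least 5 Meg3 UMIs each and together held 77.2% of the class's Meg3. The same held for 37 of 4997 astrocytes with 63.2%, 18 of 3784 endothelial cells with 53.8% and 27 of 7183 microglia with 43.5%, whereas 494 of 667 neurons reached that number. In WT male 2, 1 endothelial barcode held 88 of 93 Meg3 UMIs, and without it the class level was 25.4 CPM in place of 464 CPM. No doublet caller was run, so these barcodes may hold more than 1 cell. Class levels of Meg3 outside neurons and OPCs are therefore levels of sums that 1 barcode can set. In OPCs, 243 of 726 cells held Meg3, and the 6 with at least 5 UMIs held 13.1% of it. Single barcodes weighed there too, with 17 of 64 Meg3 UMIs in 1 OPC of WT female 3.

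The share of cells with a UMI was compared after each cell was thinned to 250 UMIs. Malat1 was found in 96.7% to 99.7% of cells on average, depending on the class. Meg3 was found in 80.2% of neurons, 14.8% of OPCs and 2.37% of microglia (91.3%, 31.9% and 5.02% unthinned), with median depths of 833, 622 and 522 UMIs per cell. Snhg11 was found in 55.2% of neurons and 0.687% of microglia (80.4% and 1.55% unthinned), and Neat1 in 26.2% of oligodendrocytes and 0.518% of neurons. Barcodes with fewer than 200 genes also carried these RNAs, with 39374 to 71770 CPM of Malat1 and 507 to 2900 CPM of Meg3. The low shares of Meg3 and Snhg11 in microglia therefore cannot be read as expression in those cells.

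Across 90 points, each 1 class of 1 library, the genes with levels most like each RNA were ranked by Pearson's r over 3638 genes. Snhg11 was first for Meg3 (r = 0.944), followed by 9330162G02Rik (0.924), Erc2 (0.916), Snap25 (0.916) and Celf5 (0.908). Snap25 is a synaptic vesicle fusion protein and was 1 of the markers that defined neurons. For Snhg11, Meg3 was followed by Nrxn3 (0.933), Snap25 (0.921), Olfm1 (0.921) and Arpp21 (0.920). For Neat1 the nearest genes were Glul (0.853), Selenop (0.817), Pon2 (0.812), Pmp22 (0.809) and Apod (0.790), and for Malat1 they were Ccdc88a (0.770), Scg3 (0.701), C130071C03Rik (0.699), Akap9 (0.682) and Fut9 (0.678). The neighboring genes Malat1 and Neat1 had r = -0.283 with each other. These points share libraries and classes, so r is a description only.

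The mitochondrial rRNA share differed widely between libraries, from 4.66% in WT female 2 to 23.1% in WT female 3, and 4 of the RNAs were higher where it was higher. Over the 15 libraries Malat1 CPM had r = 0.842 with the share (permutation p = 1.10e-04, adjusted over the 5 RNAs 5.50e-04), and rho = 0.807 (permutation p = 4.60e-04, adjusted 0.00230). Meg3 had r = 0.721 (permutation p = 0.00229, adjusted 0.00572) and rho = 0.661 (permutation p = 0.00894, adjusted 0.0152). Snhg11 had r = 0.557 (permutation p = 0.0305, adjusted 0.0305) and rho = 0.496 (permutation p = 0.0614, adjusted 0.0767). Miat had r = 0.564 (permutation p = 0.0283, adjusted 0.0305) and rho = 0.446 (permutation p = 0.0978, adjusted 0.0978).

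Neat1 ran the other way, with r = -0.612 (permutation p = 0.0166, adjusted 0.0276) and rho = -0.661 (permutation p = 0.00913, adjusted 0.0152). The share enters the denominator of CPM, so the levels were also divided by the UMIs from genes outside the mitochondrial genome. On that scale r was 0.897 for Malat1 (adjusted permutation p = 5.00e-05), 0.769 for Meg3 (0.00182), 0.658 for Snhg11 (0.0118), 0.641 for Miat (0.0124) and -0.397 for Neat1 (0.143). The negative relation of Neat1 was thus past the test only for CPM of all UMIs.

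WT female 2 and THY-Tau22 female 4, with shares of 4.66% and 7.19%, were the 2 libraries farthest from the median share. Without them Malat1 kept r = 0.802 (adjusted permutation p = 0.00470, n = 13). The values of the others were 0.518 for Meg3, 0.196 for Snhg11, 0.359 for Miat and -0.450 for Neat1, none of them past the threshold in 13 libraries. Within the 8 female libraries r was 0.923 for Malat1, 0.840 for Meg3 and 0.820 for Snhg11 (adjusted exact permutation p = 0.00694, 0.0166 and 0.0220). Within the 7 male libraries it was 0.750 for Malat1, -0.790 for Neat1, 0.285 for Meg3, -0.342 for Snhg11 and 0.336 for Miat, none past the threshold (adjusted exact permutation p = 0.133 for Malat1 and Neat1). Without the MB22 libraries it was 0.802 for Malat1 (adjusted permutation p = 0.00595, n = 13) and 0.640 for Meg3 (0.0483), an alternative added after the data were seen. Malat1 passed the test in each of these subsets but the males.

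**Figure D3:**
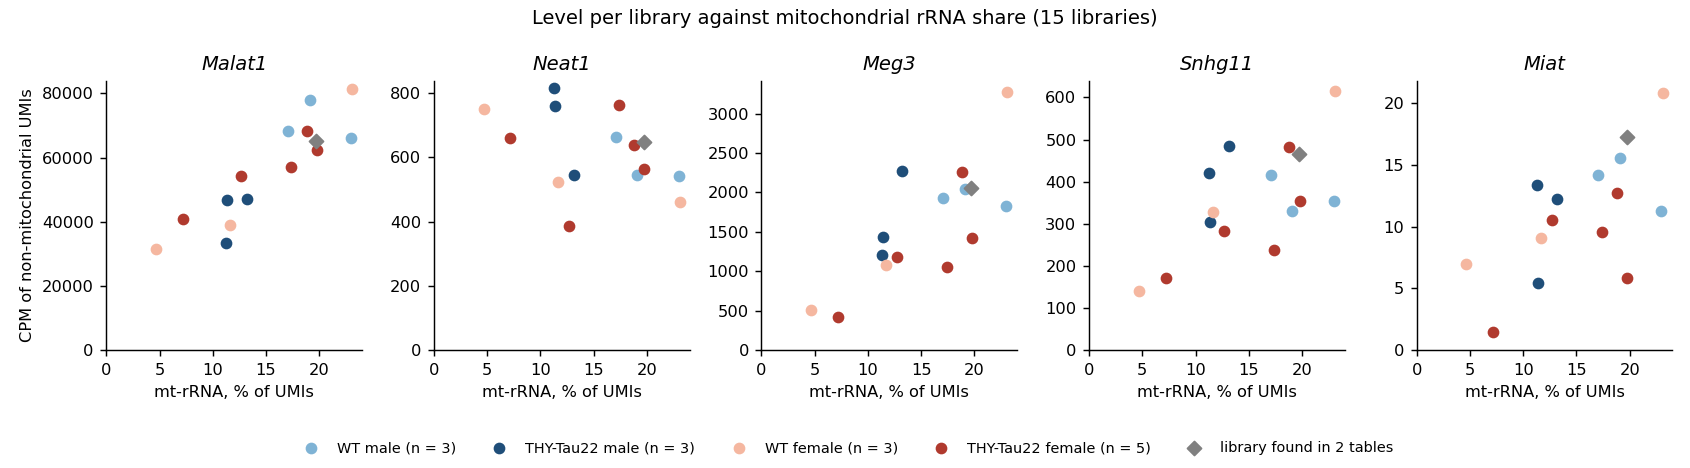
CPM of non-mitochondrial UMIs (y axes, from 0) of each RNA against the mitochondrial rRNA share in percent of UMIs (x axes, from 0) in 15 libraries, colored by group, with the library found in 2 tables as a gray diamond. Malat1 climbs with the share over the 15 libraries (r = 0.897), while Neat1 does not (r = -0.397). For Malat1 r was 0.947 within females and 0.832 within males, the latter not past the test (adjusted exact permutation p = 0.134).

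Other measures moved with the share as well, and their part in these relations was not tested. The summed share of ribosomal protein genes had r = -0.956 with it and that of the other mitochondrial genes r = -0.854, whereas the number of kept cells had r = 0.694 and the neuron share of cells r = 0.659. For a sum over all cells, fewer neurons and less RNA per neuron cannot be told apart. Within a class the relation with the library's share was a description only. On non-mitochondrial UMIs, r for Malat1 was 0.878 in microglia, 0.869 in astrocytes, 0.900 in oligodendrocytes, 0.886 in OPCs and 0.851 in endothelial cells, against 0.440 in neurons. Meg3 and Snhg11 had r = 0.280 and -0.212 in neurons, the class that held most of their assigned UMIs.

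Cells of 1 class and 1 library were next ranked by their own mitochondrial rRNA share and divided into 3 equal groups, which keeps the library the same on both sides. In neurons, cells of the highest group had 92689 CPM of Malat1 (of non-mitochondrial UMIs) against 52132 CPM in the lowest, a mean log2 ratio of 0.89 ± 0.51 (SD, n = 11), higher in 11 of 11 libraries (adjusted exact p = 0.00471). Meg3 in neurons had 29361 against 13888 CPM, a log2 ratio of 1.08 ± 0.68, higher in 11 of 11 (adjusted exact p = 0.00471). Snhg11 in neurons had 5620 against 3540 CPM, a log2 ratio of 0.69 ± 0.49, higher in 10 of 11 (adjusted exact p = 0.00732). All 3 neuronal levels were thus higher in cells with more mitochondrial rRNA. The mean share was 33.7% in the highest and 10.4% in the lowest group of neurons, and the median depth was 497 against 835 non-mitochondrial UMIs, whose part in the difference was not tested.

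In glia and vessel cells the Malat1 ratios were smaller than in neurons. The log2 ratio was 0.29 in endothelial cells (15 of 15 libraries, adjusted exact p = 0.00122), 0.38 in OPCs (12 of 13, adjusted exact p = 0.00366) and 0.21 in oligodendrocytes (14 of 15, adjusted exact p = 0.00471). It was 0.08 in astrocytes and 0.04 in microglia, neither past the test (adjusted exact p = 0.553 and 0.742). The highest group had fewer median UMIs, at 393 against 620 in endothelial cells and 447 against 611 in OPCs. Oligodendrocytes had 472 against 574 and astrocytes 395 against 497. The part of depth in these values was not tested. Within microglia, Meg3 stood at 250 against 88.8 CPM (14 of 15 libraries) and Snhg11 at 57.2 against 14.7 CPM (14 of 15), each with an adjusted exact p of 0.00122, at a similar median depth of 457 and 472 UMIs. Those microglial sums held as few as 0 UMIs in a library. Neat1 and Miat passed the test in no class.

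**Figure D4:**
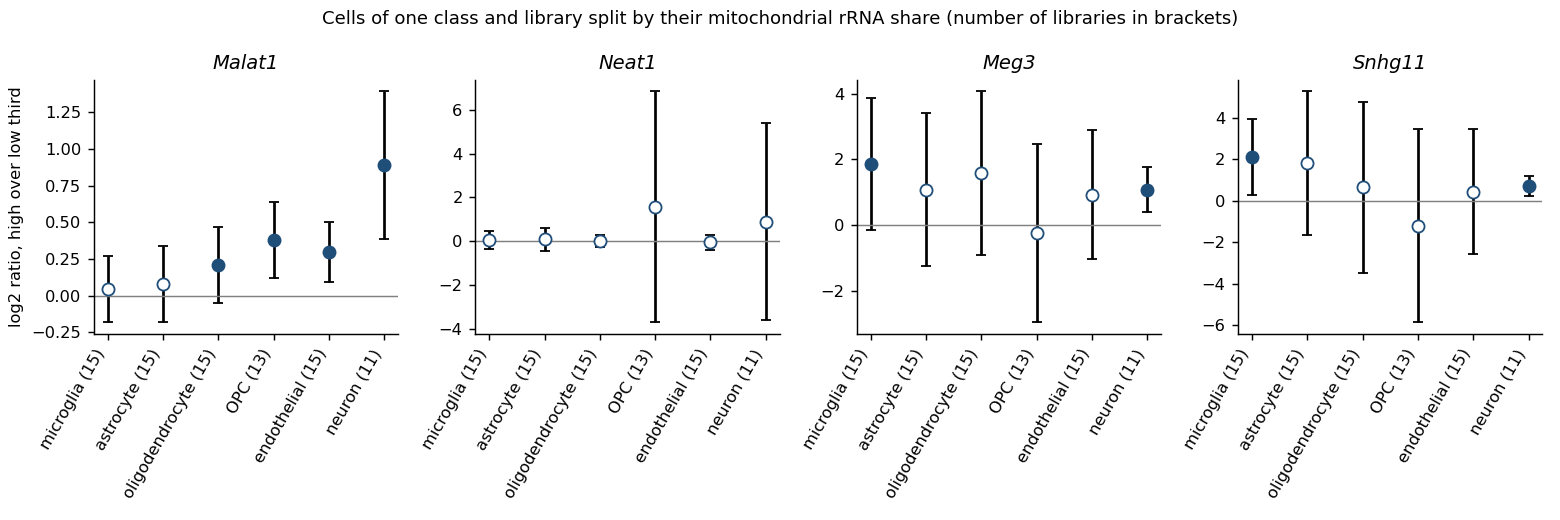
Mean log2 ratio (y axes) of cells with the highest over cells with the lowest mitochondrial rRNA share of the same class and library, for Malat1, Neat1, Meg3 and Snhg11, with bars for the SD over libraries. Filled points passed the exact sign-flip test after adjustment, among them the 3 neuron values of 0.89, 1.08 and 0.69.

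The genotype comparison asked whether these RNAs differed between THY-Tau22 and WT mice of the same sex. It was fitted with edgeR's quasi-likelihood test over 11643 genes, and a gene counted as called when its adjusted p was under 0.05 and its log2 fold change was 0.5 or more in size. None of the 5 RNAs was called in males or females, with the sexes together or for the difference between them, against a background of 0% of all genes in each. At an unadjusted p under 0.05, 1792 genes stood out in males (15.4%), 203 in females (1.74%), 491 with the sexes together (4.22%) and 1482 for the difference between the sexes (12.7%), and of the 5 RNAs only Malat1 in males. DESeq2 called 15 genes in males, none of them among the 5 RNAs, and 0 in the other comparisons.

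Malat1 had the lowest male p of the 5. THY-Tau22 males averaged 36853 ± 6668 CPM (SD, n = 3), against 56467 ± 6155 for WT males (SD, n = 3), without overlap, as for 6.68% of genes that lay lower. The exact permutation p was 0.10, the smallest that 3 against 3 libraries can give. The edgeR log2 fold change was -0.79 ± 0.34 (SE), with an unadjusted p of 0.0327 and an adjusted p of 0.292. In females the means were 47112 ± 6332 (n = 5) and 41900 ± 17674 CPM (n = 3), with an exact permutation p of 0.536 and an edgeR log2 fold change of 0.14 ± 0.31 (adjusted p = 1.00). The male effect minus the female effect was -0.93 ± 0.46 on the log2 scale (edgeR adjusted p = 0.401).

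The mitochondrial rRNA share separated the male groups in the same way, at 11.9% ± 1.07 under the transgene and 19.7% ± 3.01 without it (exact permutation p = 0.10, the smallest possible). It was 15.2% ± 5.22 against 13.1% ± 9.31 in females (exact permutation p = 0.732). With the share as a term in the edgeR fit, the Malat1 log2 fold change in males was -0.32 (unadjusted p = 0.165). Because the share and the genotype separate the same 6 male libraries, their parts cannot be told apart. Ribosomal protein genes supplied 2.46% ± 0.242 of UMIs for male THY-Tau22 libraries and 1.42% ± 0.153 for male WT libraries, and neurons 2.30% ± 0.699 and 2.88% ± 0.718 of cells, and their part in the Malat1 values was not tested.

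The female values of Malat1 turned on single libraries. Without WT female 3, an MB22 library, the difference between the sexes was called for Malat1, at -1.47 with an edgeR adjusted p of 0.0237, in a fit that called 9.56% of genes. Without both MB22 libraries it was -1.41 (edgeR adjusted p = 0.0444, with 6.04% of genes called), and the female log2 fold change was 0.62 (edgeR adjusted p = 0.528). With the title prefix as a term the difference between the sexes was -1.14 for Malat1 and was not called (edgeR adjusted p = 0.142).

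Of the other RNAs, none passed the exact permutation test in females, and in males 3 against 3 libraries cannot pass it. Neat1 averaged 614 ± 130 CPM in THY-Tau22 males against 466 ± 70.0 without the transgene (exact permutation p = 0.20). In females the averages were 505 ± 120 and 504 ± 182 CPM (exact permutation p = 1.00). Meg3 averaged 1417 ± 473 and 1541 ± 129 CPM in males, and 1044 ± 519 and 1307 ± 1057 CPM in females (exact permutation p = 0.70 and 0.625). Snhg11 averaged 349 ± 75.9 and 293 ± 42.3 CPM in males, and 253 ± 88.9 and 296 ± 169 CPM in females (exact permutation p = 0.40 and 0.679). Miat averaged 8.98 ± 3.69 and 10.9 ± 2.05 CPM in males, and 6.62 ± 3.63 and 10.1 ± 5.05 CPM in females (exact permutation p = 0.60 and 0.339). Their edgeR log2 fold changes in males were 0.22 ± 0.26 for Neat1, -0.29 ± 0.49 for Meg3, 0.08 ± 0.38 for Snhg11 and -0.40 ± 0.50 for Miat. In females they were 0.05 ± 0.23, -0.38 ± 0.44, -0.27 ± 0.34 and -0.60 ± 0.46 in the same order.

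Within the cell classes, Malat1 was lower in THY-Tau22 than in WT males in every library of 5 classes, yet in none was it called. In microglia, the brain's resident macrophages, WT males had 42479, 44861 and 50023 CPM and THY-Tau22 males 30983, 29698 and 19646 CPM, a log2 fold change of -0.84 (edgeR unadjusted p = 0.0125, adjusted p = 0.170). In astrocytes the values were 78016, 91001 and 99523 CPM against 68919, 62550 and 44066 CPM (-0.87, edgeR adjusted p = 0.187). In oligodendrocytes they were 46625, 48573 and 58224 CPM against 33497, 34164 and 22866 CPM (-0.96, edgeR adjusted p = 0.138).

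OPCs had 73298 ± 6449 CPM in WT and 43081 ± 11451 in THY-Tau22 males, and endothelial cells 42522 ± 5399 and 28056 ± 6985 CPM, a log2 fold change of -0.80 and -0.75 (edgeR adjusted p = 0.566 and 0.336). Neurons, the class in which the promoter drives the transgene, overlapped, with 50780 ± 7758 CPM in WT and 54031 ± 27060 in THY-Tau22 males. In males, genes called were 48 of 5500 in microglia (0.873%), 6 of 4371 in astrocytes (0.137%), 3 of 4085 in oligodendrocytes (0.0734%), 3 of 715 in OPCs (0.42%), 0 of 4141 in endothelial cells (0%) and 0 of 1312 in neurons (0%). Without overlap and lower in THY-Tau22 males were 9.24% of genes in microglia, 5.56% in astrocytes, 6.81% in oligodendrocytes, 8.25% in OPCs and 6.16% in endothelial cells. In females the Malat1 log2 fold change lay between 0.13 and 0.23 in these 5 classes and was -0.46 in neurons.

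**Figure D5:**
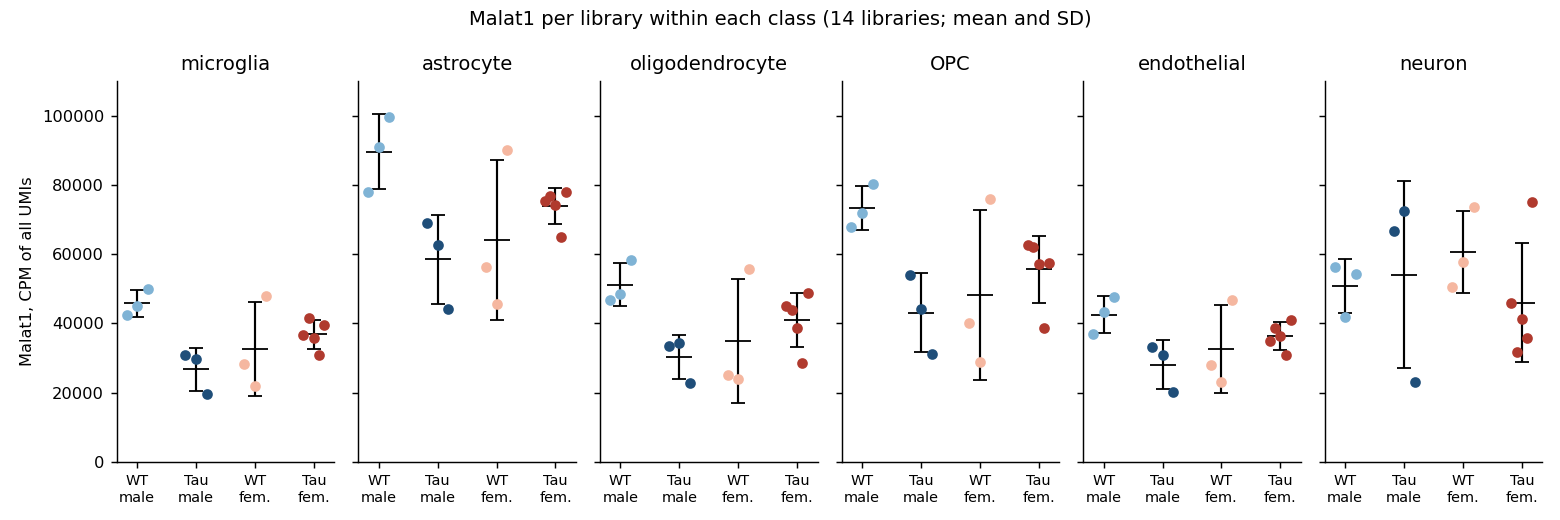
Malat1 CPM of all UMIs (y axis, from 0) by group in 6 classes in 14 libraries, where Tau stands for THY-Tau22, points are libraries, and bars give the mean and SD. The male groups are apart in every class but neurons, while THY-Tau22 females lie within the range of WT females outside neurons.

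Without WT female 3 the male log2 fold change of Malat1 was called in microglia (-0.85, edgeR adjusted p = 0.0476) and oligodendrocytes (-0.96, edgeR adjusted p = 0.0369), where that fit called 3.76% and 2.37% of genes. The difference between the sexes, which was -1.0 in microglia, -1.06 in astrocytes, -1.19 in oligodendrocytes and -0.88 in endothelial cells, was then called in all 4 (-1.49, -1.60, -1.83 and -1.37). The edgeR adjusted p-values were 0.0130, 0.00540, 0.00244 and 0.0272, and those fits called 8.16%, 14.9%, 10.8% and 6.18% of genes. Without both MB22 libraries it was called in microglia (-1.49), astrocytes (-1.56) and oligodendrocytes (-1.75), with 4.57%, 10.5% and 7.94% of genes called, and the male change in oligodendrocytes (-0.96) with 2.49%. With the title prefix as a term in the fit of all 14 libraries it was called in oligodendrocytes (-1.45, edgeR adjusted p = 0.030, with 2.82% of genes called). That term was added after the data were seen. With all libraries these 4 differences had edgeR adjusted p-values of 0.298, 0.225, 0.183 and 0.411, against a background of 0% of genes called in microglia, 0.16% in astrocytes, 0.392% in oligodendrocytes and 0% in endothelial cells.

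Meg3 in microglia of females had the lowest unadjusted edgeR p of the 5 RNAs in any class and comparison. WT females had 198, 83.5 and 364 CPM and THY-Tau22 females 111, 52.7, 112, 115 and 71.4 CPM. The groups overlapped, and WT female 3 was the highest. The log2 fold change in females was -1.27 ± 0.33 (edgeR unadjusted p = 7.04e-04, adjusted p = 0.999), and 1.51% of genes had an unadjusted p under 0.05 and lay lower. Without WT female 2 it was called, at -1.69 (edgeR adjusted p = 0.00394, with 0.0324% of genes called). These values rest on 9 to 147 UMIs per library, of which few barcodes held a large part. As above, Meg3 counts this low in microglia cannot be read as expression in those cells.

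Snhg11 in neurons, where most of its UMIs lay, was higher in THY-Tau22 males and lower in THY-Tau22 females, without a call. WT males had 3160, 3108 and 2398 CPM and THY-Tau22 males 4537, 5071 and 3697 CPM, without overlap, as for 6.1% of genes that lay higher. WT females had 4612, 6360 and 4532 CPM and THY-Tau22 females 2881, 2192, 2832, 3604 and 4546 CPM, and only THY-Tau22 female 5 reached the WT range. WT female 2 had 11 neurons, of which 1 held 27 of 58 Snhg11 UMIs. Without that barcode its level was 4451 CPM in place of 6360 CPM. For males the edgeR log2 fold change was 0.56 ± 0.39 (adjusted p = 0.773), for females -0.71 ± 0.35 (adjusted p = 0.988), with a difference between the sexes of 1.26 ± 0.52 (adjusted p = 0.712).

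Meg3 in neurons showed the same order of means, 18751 ± 7629 in THY-Tau22 against 15060 ± 989 CPM in WT males and 12460 ± 5041 against 19469 ± 3492 CPM in females, with a difference between the sexes of 0.94 ± 0.66 (edgeR adjusted p = 0.917). Neurons numbered 11 to 99 per library, so that these levels come from few cells. In WT female 2, 1 neuron held 96 of 197 Meg3 UMIs, and without it the level was 14501 in place of 21601 CPM. In THY-Tau22 male 3, 1 neuron held 161 of 701, and without it the level was 8546 in place of 10164 CPM. Meg3 in endothelial cells had a log2 fold change of -1.23 ± 0.50 in males (edgeR adjusted p = 0.324), a value that includes the WT male 2 barcode described above.

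Neat1 in astrocytes averaged 465 ± 103 CPM in THY-Tau22 and 314 ± 30.2 in WT males, without overlap, as did 22.6% of astrocyte genes in the direction of higher levels. Its edgeR log2 fold change there was 0.30 ± 0.25 (adjusted p = 0.533). In oligodendrocytes, its leading class, it was -0.04 ± 0.26 in males and 0.05 ± 0.23 in females. Miat passed the filter on low counts in no class, and Neat1 in neither OPCs nor neurons.

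Among proteins and RNAs that share the nuclear bodies or loci of these transcripts, 0 were called over all cells. Of 20 nuclear speckle proteins, all of them tested, 3 were higher and 4 lower in THY-Tau22 males at an unadjusted p under 0.05 (9.04% and 6.36% of all genes), with a median log2 fold change of -0.28 against 0.01 over all genes. Srsf5, a splicing factor, averaged 255 against 143 CPM in males (log2 fold change 0.65 ± 0.21, edgeR adjusted p = 0.234). Ddx39b, an mRNA export helicase, averaged 64.4 against 30.6 CPM (0.87 ± 0.33, edgeR adjusted p = 0.271). Of 17 paraspeckle proteins 0 were higher and 1 was lower against the same shares of all genes, with a median of 0.01. That gene was Sfpq, a core paraspeckle protein, with 356 against 520 CPM and a log2 fold change of -0.72 ± 0.27 (edgeR adjusted p = 0.266).

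Of 27 other long noncoding RNAs, 25 were in the tables and 21 were tested. In males 4 were higher and 2 lower at an unadjusted p under 0.05 (9.04% and 6.36% of all genes), with a median log2 fold change of 0.25 against 0.01 over all genes, and in females 0 were higher and 1 was lower (0.636% and 1.11% of all genes), with a median of -0.18. Snhg12, a host of small nucleolar RNAs, averaged 53.1 against 19.5 CPM in males over all cells (1.24 ± 0.32, edgeR adjusted p = 0.196). In microglia it rose, the only call of these lists in any class and comparison. It was 1 of 11 RNAs of its list tested in microglia of males, where 0.873% of all genes were called. THY-Tau22 males had 88.7, 67.2 and 99.3 CPM there and WT males 24.2, 29.7 and 22.5 CPM, a log2 fold change of 1.65 ± 0.38 (edgeR adjusted p = 0.0395), from 23 to 35 UMIs against 5 to 12. The call was lost with the mitochondrial rRNA share as a term (1.27, edgeR adjusted p = 0.591), without TMM (1.75, edgeR adjusted p = 0.0569), with all 16 libraries as labelled (1.18, edgeR adjusted p = 0.211) and with the shared library as a THY-Tau22 male (1.44, edgeR adjusted p = 0.190). DESeq2 gave Snhg12 no adjusted p. The call was also lost without any 1 of WT males 1, 2 and 4, THY-Tau22 males 1 and 3 or THY-Tau22 female 3 (1.54 to 1.71, edgeR adjusted p = 0.0566 to 0.210). Microglia of THY-Tau22 females averaged 43.2 ± 15.6 CPM and of WT females 57.6 ± 29.1 CPM.

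Snhg3, another such host, averaged 46.2 against 20.8 CPM in males over all cells (1.00 ± 0.35, edgeR adjusted p = 0.260). Tug1, a long noncoding RNA first studied in the retina, averaged 23.0 ± 3.25 CPM in THY-Tau22 and 37.8 ± 1.69 in WT females, with a log2 fold change of -0.68 ± 0.22 (edgeR adjusted p = 1.00). Of 6 genes of the Dlk1-Dio3 locus, Meg3 and Rian were tested over all cells, and Rian, the neighboring small nucleolar RNA host, had a male log2 fold change of -0.62 (edgeR adjusted p = 0.592). Over all cells neither reached an unadjusted p under 0.05 in any comparison.

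For the difference between the sexes, 5 of the 21 other long noncoding RNAs had a more positive male effect at an unadjusted p under 0.05 and 0 a more negative one (8.34% and 4.39% of all genes), with a median of 0.54 on the log2 scale against 0.02 over all genes. Snhg12 and Snhg3 led them, at 1.64 and 1.49 (edgeR adjusted p = 0.291 for both). Srsf5 and Srsf7 led the speckle proteins, at 0.73 and 0.77 (edgeR adjusted p = 0.312 and 0.345). Of these 20 proteins, 2 had a more positive and 0 a more negative male effect at an unadjusted p under 0.05, against the same shares of all genes. Their median was -0.39 against 0.02 over all genes, with 8 of the 20 above 0 and 12 below. The remaining genes with the lowest p of a list did not pass either. Matr3, a nuclear matrix protein, had a log2 fold change of -0.41 in males, and in females Pantr1 had -0.42, Clk4 -0.31, Srsf11 0.21, Nudt21 -0.33 and Ewsr1 -0.24. Over both sexes Dlx6os1, an RNA of interneurons, had -0.89.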

How the data were processed

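Cortex of THY-Tau22 and WT mice was dissociated, and single cells were profiled by Drop-seq, which tags each captured polyadenylated RNA with a cell barcode and a UMI and sequences its 3′ end. Each deposited table gave UMI counts for 3000 barcodes, which the authors had not normalized. The submitters' processing notes name the mm10 build; the aligner and its settings are not given in the sources used here.

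Barcodes with 200 to 7000 detected genes were kept, as in the study's methods, and the study's further limit of 5% mitochondrial content was tried as an alternative, counted without mt-Rnr1 and mt-Rnr2. Tables held 1041675 to 2237505 UMIs and median depths of 429 to 736.5 UMIs per kept cell. A barcode was assigned to a class at 3 or more UMIs from at least 2 of its defining markers and at least 2 times the UMIs of the next class (strict rule, 5 UMIs and 4 times). This left 3134 kept barcodes unnamed, of which 1994 had markers of several classes. No doublet caller was run. UMIs were summed per library, and per class where a library had at least 10 cells, and given as CPM.

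Genotype effects were fitted per sex with edgeR 4.0.16 in R 4.3.3 (TMM, filterByExpr, quasi-likelihood, Benjamini-Hochberg over all genes tested), with DESeq2 1.42.0 as an alternative, in which an adjusted p could be undefined. Other tests were 2-sided exact permutations or 100000 permutations in Python 3.11.15 with scipy 1.17.1, numpy 2.4.6 and pandas 2.3.3. With 5 against 3 females the smallest exact p is 0.0179. Log2 ratios between classes and between groups of cells used a pseudocount of 1 CPM, and libraries with under 30 cells of a class were left out of the latter. Levels were ranked for likeness as log2(CPM + 10) among genes of at least 50 CPM.

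The fit was tested on simulated counts of the 14 libraries of the genotype comparisons, with 200 genes altered in THY-Tau22 males only. Counts were drawn independently at 1 common dispersion (0.0576 over all cells), without any shift shared by the genes of a library. Over all cells (11282 genes) it recovered 29.5% of genes altered by 1 on the log2 scale and 85% of those altered by 2. In microglia (5220 genes) it recovered 28.4% and 91.8%.

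The members, lists and tests were chosen with earlier results of these data known. Named from each list were the genes called in a comparison, or the 2 with the lowest p where none was called. Replicate numbers follow accession order and pair nothing. Where separate mice are not stated, p-values measure only the spread between libraries. The alternatives were no TMM, no mitochondrial genes, the rRNA share as a term, no low-count filter, the shared library under either label or both, the strict class rule, each library left out, and, added after the data were seen, no MB22 libraries and the title prefix as a term. Some items that these rules would name are not reported here.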

Additional observations from a re-analysis of the deposited data

Results flagged for a closer look

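In 36 sets of 4 or 5 libraries, 1 group and class each, 5 had a library that stood apart from the rest of its group by Dixon's test at the 95% level, where chance gives about 1 in 20. Every set came from THY-Tau22 females (n = 5), the 1 group with enough libraries for this test. THY-Tau22 female 4, which had the second lowest mitochondrial rRNA share of all, was lowest for Malat1 in astrocytes, at 64805 CPM against 74086 to 77813 CPM, and in OPCs, at 38707 CPM against 57214 to 62719 CPM. THY-Tau22 female 5, an MB22 library, was highest for Meg3 in oligodendrocytes, at 447 CPM against 26.0 to 91.9 CPM. THY-Tau22 female 2 was highest in endothelial cells for Snhg11, at 75.8 CPM against 10.4 to 18.3 CPM, and for Miat, at 12.6 CPM against 0 to 3.63 CPM, both from few UMIs.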

How the results depend on the processing

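No paired analysis was possible because the replicate numbers follow accession order, but the title prefix could be fitted as a term. Under the alternatives that kept all 14 libraries or added the shared library, 1 call was made among the 5 RNAs, Malat1 in oligodendrocytes for the difference between the sexes with the title prefix as a term. Without the MB22 libraries, an alternative chosen after seeing the data, 1 was called for the difference between the sexes over all cells, in microglia and in astrocytes, 1 in oligodendrocytes of males, and 2 in oligodendrocytes for the difference between the sexes (Malat1, and Meg3 at 1.99 with an edgeR adjusted p of 0.0113). The Meg3 sums of oligodendrocytes rest on few barcodes. A single cell held 119 of 160 UMIs in THY-Tau22 male 3, 69 of 102 in THY-Tau22 male 1 and 51 of 59 in WT male 4. Leaving out 1 library gave 0 to 1 called for the difference between the sexes over all cells and in microglia, astrocytes, oligodendrocytes and endothelial cells, in microglia of males and of females, and in oligodendrocytes of males. Each of those calls was made without WT female 3, except that of microglia of females, made without WT female 2.

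Called genes over all cells in males numbered 0 in the edgeR fit, 15 with DESeq2, 295 without the low-count filter, 3 with the shared library as a WT male, 15 with the title prefix as a term and 88 without the MB22 libraries. For the difference between the sexes they numbered 0, and 182 without the low-count filter, 7 with the title prefix as a term and 711 without the MB22 libraries. In microglia of males they numbered 48, and 90 with DESeq2, 5 without TMM, 161 with the title prefix as a term, 178 without the MB22 libraries and 0 with the rRNA term. Without TMM the median gene in males lay at 0.20 and Malat1 at -0.61.

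Fold changes of which none was called also turned. With the rRNA term Meg3 was 0.71 in males and 0.17 over both sexes, Miat 0.25 in males, Snhg11 0.25 over both sexes and Neat1 -0.094 for the difference between the sexes. With the title prefix as a term Meg3 was 0.095 in females and -0.39 between the sexes, Snhg11 7.02e-04 in females and 0.038 over both sexes, and Miat -0.034 between the sexes. Without TMM Snhg11 was 0.014 over both sexes. With the shared library as a THY-Tau22 male, Meg3 in endothelial cells was 0.44 in males and 0.039 over both sexes. Without the MB22 libraries Meg3 was 0.37 in females, 0.037 over both sexes and -0.66 between the sexes, Snhg11 0.17, 0.12 and -0.10, Neat1 -0.090 in females and Miat -0.32 between the sexes. Leaving out 1 library gave Malat1 -0.11 to 0.69 in females, Meg3 -0.81 to 0.67 in females, -0.55 to 0.19 over both and -0.96 to 0.52 between the sexes, and Miat -0.88 to 0.13 and -0.54 to 0.48 in females and between the sexes. It gave Neat1 -0.076 to 0.27 and -0.055 to 0.32 in females and between the sexes, and Snhg11 -0.085 to 0.21 in males, -0.65 to 0.40 in females, -0.29 to 0.23 over both and -0.32 to 0.73 between the sexes. The causes were not tested.

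The difference in rRNA share between female genotypes ran from -2.21 to 7.01 percentage points as 1 library was left out. Besides the correlations given with the results, r was -0.589 for Neat1 and 0.630 for Miat in females, and without the MB22 libraries -0.548 for Neat1, 0.413 for Snhg11 and 0.451 for Miat. Males gave 0.750, -0.790, 0.285, -0.342 and 0.336 for Malat1, Neat1, Meg3, Snhg11 and Miat. Over both sexes without the 2 farthest libraries the last 4 gave -0.450, 0.518, 0.196 and 0.359, and over all 15 libraries Neat1 gave -0.397 on non-mitochondrial UMIs. With cells divided into 2 equal groups in place of 3, Meg3 passed in 4 classes and Miat in 1, against 2 and 0. Miat had 1 to 27 UMIs per table.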

Other observations

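The library found in 2 tables entered no genotype comparison. Labelled WT male 3, it had 51915 CPM of Malat1, 514 of Neat1, 1640 of Meg3, 367 of Snhg11 and 15.1 of Miat, with a mitochondrial rRNA share of 19.6%. Labelled THY-Tau22 male 4, it had 51873, 518, 1629, 373 and 12.4 CPM in the same order, with a share of 19.9%.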
